A study of Neurospora crassa OR74A and Aspergillus nidulans FGSC A4 with 22 samples.

Results

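In *Aspergillus nidulans*, 145 abundantly expressed genes had a mean transcript abundance at least 2 times as high in cultures without a carbon source as in cultures on Avicel, a crystalline cellulose. These genes were chosen by their measured values: a mean over both conditions of at least 1000 normalized counts and a no carbon mean of at least 2 times the Avicel mean, with the identifiers AN8977 to AN8982 left out. The 145 members stood among 5768 genes with a mean of at least 1000 and 10596 genes in the table. Because the 2 group means made the selection, the ratio of these means is a description of the members and carries no test. Under this rule, 146 of the 5768 genes (2.53%) reached the ratio, and the only one left out by its number was AN8979. The same ratio in the opposite direction, with the higher mean on Avicel, was reached by 395 of them (6.85%).

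The study shifted mycelia of *A. nidulans* and of *Neurospora crassa* from a sugar medium to new media and sequenced polyadenylated RNA from the hyphae. The *A. nidulans* cultures described here were the wild type FGSC 4A, grown for 16 h on 1% glucose at 37°C, washed, and held for 6 h at 37°C either on 2% Avicel PH-101 or in the same medium with no carbon source added. The *N. crassa* cultures were the wild type OR74A, grown for 16 h on sucrose at 25°C and held for 4 h at 25°C on 2% Avicel or without carbon. Each of these 4 groups had 3 libraries, 12 of the 22 samples of the study, and the other 10 samples were not analysed here. All cultures had therefore lost their sugar, and the 2 *A. nidulans* groups differed in whether cellulose was present. In bulk RNA from a mycelium, a lower share of cells that express a gene and less transcript per cell cannot be told apart.

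As background, a filamentous fungus that runs out of sugar relieves the repression of many genes for the use of other carbon sources and takes up and breaks down its own stores and walls. When cellulose is present, it also secretes large amounts of hydrolases. Such enzymes enter the endoplasmic reticulum (ER) through the Sec61 translocon, are folded there with the help of lumenal chaperones such as BiP and of protein disulfide isomerase, and leave in vesicles. Genes of that route are thus often followed together with the cellulase genes.

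The label of the Avicel group was checked on cellulase genes. The cellobiohydrolase gene *cbhA* (AN5176) had a mean of 422 normalized counts without carbon and 206832 on Avicel, which was 490-fold higher. A second cellobiohydrolase gene, *cbhB* (AN0494), was 30.6-fold higher on Avicel, with means of 1120 and 34290. The endoglucanase gene *eglA* (AN1285) was 298-fold higher, with means of 247 and 73648. The labels and the cellulase genes therefore pointed the same way.

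The deposited table gives 1 mean per group and no values per library. A group mean is, however, the mean of 3 whole numbers of reads after each library was scaled by its own size factor. The size factors are not listed in the table and were inferred from the means that a single read gives, and then refined over the means solved with them. With these factors, the reads of the single libraries could be read back from a mean below 1000 where only 1 combination fitted its 10 digits. Libraries are numbered by falling size factor within a group, 1 having the largest, and were not matched to the replicate numbers of the study. The inferred size factors were 1.03, 1.03 and 0.807 on Avicel and 1.09, 1.04 and 1.04 without carbon, and the estimated depth was 37.7 to 48.3 M counted reads per library. Among the Avicel libraries, library 2 stood apart. Of 1893 genes with an Avicel mean of 200 to 1000 and reads per library, 32 (1.69%) were at least 2-fold higher in library 2 than in both others, against 1 for library 1 and 0 for library 3. It was also at least 2-fold below both others in 34 genes, against 8 for library 1 and 1 for library 3. Among 935 genes without carbon, library 1 was 2-fold above both others in 23, library 2 in 22 and library 3 in 1, and library 2 was 2-fold below both others in 34. No carbon libraries 1 and 2 thus stood apart as well. Their shares of genes 2-fold above both others were larger than the 1.69% of Avicel library 2. The share 2-fold below both others was also larger in no carbon library 2 than in Avicel library 2. The members' no carbon means could not be resolved into libraries, so only the Avicel side can be shown per library. Every member value below that can be given per library is shown with and without Avicel library 2.

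Across the 145 members, the ratio of means, no carbon over Avicel, ran from 2.01 to 10.1, with a median of 2.30 and quartiles of 2.12 and 2.61. On the log2 scale the median difference was 1.20, beside a median of 0.06 over all 5768 genes with a mean of at least 1000. Most members lay close to the limit of the rule. The ratio was 2 to 2.5 in 95 members, 2.5 to 3 in 37, and 3 or more in 13. The error from counting reads alone was small against these ratios, with a standard error of the log2 ratio of 0.0032 to 0.062 (median 0.022), but it leaves out the spread between cultures.

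**Figure D1:**
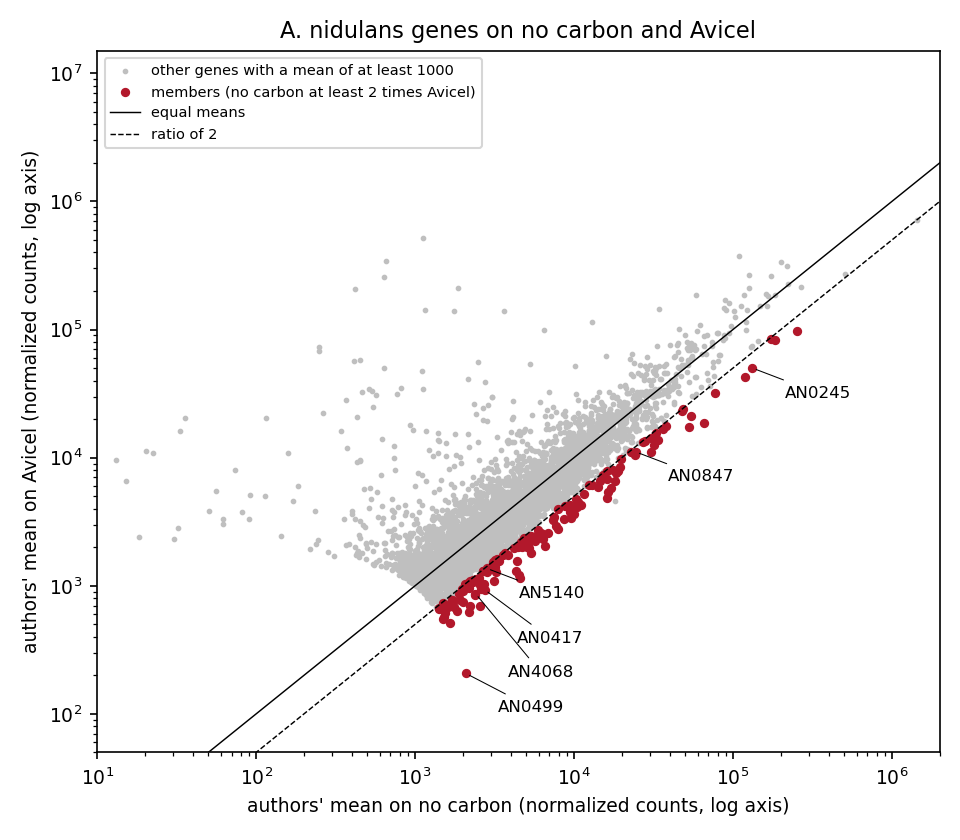
Authors' mean on no carbon (x axis) and on Avicel (y axis), in normalized counts on log axes, for the 5768 *A. nidulans* genes with a mean of at least 1000; red points are the 145 members, grey points all other genes, the solid line marks equal means and the dashed line a ratio of 2. The members follow the dashed line closely over the whole range, AN0499 lies far below it with a ratio of 10.1, and the grey point below the line is AN8979, which the rule leaves out.

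The members covered a wide range of levels. Their no carbon means ran from 1404 to 252457 normalized counts, with a median of 5096, and their Avicel means from 207 to 96799, with a median of 2112. The medians over all 5768 genes were 3172 without carbon and 3276 on Avicel. Members made up 2.31% of the 5422 genes with a mean of 1000 to 20000 and 5.78% of the 346 genes above it, 125 and 20 genes, so the most abundant genes were represented more often. Summed over the members, the normalized counts were 2310891 without carbon and 967170 on Avicel, a ratio of 2.39. This was 5.46% of all normalized counts without carbon and 2.07% on Avicel. The 10 members with the highest no carbon mean held 50.2% of that sum without carbon and 48.7% on Avicel, so the members' shift in total abundance rested largely on few genes. The difference between the means was over 10000 normalized counts in 31 members. Normalized counts are not divided by transcript length, so levels of different genes are not compared per transcript here.

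Only 5 of the 145 members are annotated in the sources used here. The study lists them as a chaperone, a translocation subunit, a nucleotide sugar transporter, a predicted membrane transporter and a glucanase. The other 140 are not among the 373 genes of the study's ortholog, paralog and regulon lists, and no role is given to them below. Of the 373 listed genes, 205 were among the 5768 with a mean of at least 1000, a share close to that of 5 among 145. The lists hold genes picked for induction and their partners in the other species. That choice limits which roles can appear among the 5, so no common role of the 145 members is read from them.

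AN0847, predicted to encode a chaperone of the ER lumen, was the most abundant annotated member of the secretory route, with a mean of 24373 normalized counts without carbon and 11108 on Avicel. The ratio was 2.19. AN0417, annotated as *sec61*, a subunit of the complex that carries new proteins into the ER, had a mean of 2739 without carbon and 931 on Avicel, a ratio of 2.94. AN4068, whose orthologs carry UDP-galactose and UDP-glucose across the ER membrane and act in protein folding, had a mean of 2397 without carbon and 870 on Avicel, a ratio of 2.76. Its 3 Avicel libraries could be read singly and held 746, 897 and 967 normalized counts, all below 50% of the no carbon mean, and without library 2 the ratio was 2.80. AN5140, with a predicted role in transmembrane transport, had means of 2815 and 1369, a ratio of 2.06 that places it near the limit. These genes were thus expressed on both media and were lower, not off, on cellulose.

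AN0245 encodes a glucanase of glycoside hydrolase family 16, a family that cleaves mixed-linkage and related beta-glucans of walls. Without carbon it was among the 5 most abundant members, with a mean of 132428 normalized counts, against 50043 on Avicel. The ratio was 2.65. It was the only annotated member that encodes a glycoside hydrolase, and it went opposite to the cellulase genes above.

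The 5 annotated members were paired by the study with *N. crassa* genes, and all 5 of these were higher on Avicel. NCU09485, the ortholog of the chaperone gene AN0847, had a mean of 6237 normalized counts without carbon and 26045 on Avicel, which was 4.18-fold higher. NCU08379, paired with *sec61* AN0417, had means of 4700 and 20237, 4.31-fold higher on Avicel. For NCU10721, the partner of AN4068, the means were 1094 and 5303, 4.85-fold higher. NCU09098, paired with AN5140, was 4.95-fold higher, with 513 and 2536. NCU01353, the mixed-linked glucanase gene paired with AN0245, was 5.70-fold higher, with 1866 and 10638. So 0 of 5 partners were lower on Avicel by the ratio used for the members, a limit that 203 of 5553 *N. crassa* genes at or above a mean of 1000 (3.66%) reached. The study listed these pairs because at least 1 gene of each was induced on Avicel, so that choice fixes the direction of the *N. crassa* genes and they say nothing of the other members. The 2 tables were normalized separately, and the species differed in time and temperature.

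The other secretory genes that the study names in *A. nidulans* were below the limit, although each had a higher mean without carbon. These genes were picked with their values known. *bipA* (AN2062), the BiP chaperone, had a mean of 129618 normalized counts without carbon and 73664 on Avicel, a ratio of 1.76. For the calnexin gene *clxA* (AN3592) the means were 69036 and 45524, a ratio of 1.52. The protein disulfide isomerase gene *pdiA* (AN7436) had means of 80497 and 56438, a ratio of 1.43. The Sec62 ortholog AN6269 had a ratio of 1.54 and the translocon alpha subunit AN7721 one of 1.40. The ratios of AN0847, AN0417 and AN4068, 2.19 to 2.94, were above all 5 of these, as the limit of 2 requires.

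AN0499 had the largest ratio, 10.1, and its Avicel libraries differed widely. Its mean was 2088 normalized counts without carbon and 207 on Avicel. The 3 Avicel libraries held 35.8, 556 and 28.5, so 89.6% of the Avicel signal came from library 2. All 3 were below 50% of the no carbon mean, and without library 2 the ratio was 65.0. AN11059, the third in ratio with means of 2569 and 697, held 265, 1599.6 and 228 in its Avicel libraries. The ratio was 3.68 and became 10.4 without library 2. AN10930, the sixth, had a no carbon mean of 2184 and Avicel libraries of 140.1, 1613 and 119. Its ratio of 3.50 became 16.9 without library 2. AN11068, with a no carbon mean of 2604, held 550, 1772 and 514 on Avicel, and its ratio moved from 2.76 to 4.89 without library 2. In these 4 genes the Avicel mean was thus set mainly by 1 library. In counts, that library lay nearer to the no carbon mean than to the other Avicel libraries in all but AN0499. On a log scale it did so in all 4. The ratios without library 2 leave a library out on the Avicel side only. In 33 less abundant genes, Avicel library 2 was at least 2-fold above both others. In 18 of these, no carbon library 1 was at least 2-fold above both others as well. These trimmed ratios are therefore no measure of a larger contrast between media.

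Reads per Avicel library were available for 16 of the 30 members with an Avicel mean below 1000, and the other 14 had several possible solutions. Library 2 was at least 2-fold above both others in 4 of the 16. The share was 1.69% of the 1893 genes counted above, which were taken at any ratio. Among 54 genes with a mean of 100 to 1000, reads of every library and a ratio of at least 2, it was so in 18. The 4 of 16 are therefore not read as a trait of the members. In all 16 members, every Avicel library lay below the no carbon mean, and in 7 every one lay below 50% of it. This does not set the groups apart. In AN1532, a less abundant gene, every Avicel library also lay below the no carbon mean of 638. Its Avicel library 2 (433) was still above no carbon libraries 2 and 3 (249.8 and 242). The no carbon means of members were all above 1000 and could not be resolved into libraries, so whether the groups overlapped was not tested for any member. The rule also selects members with low Avicel values, so these counts describe the members and support no difference between media.

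The remaining 12 of these members were more even. The standard deviation of the log2 value over the 3 Avicel libraries had a median of 0.31 over all 16 members, and a median of 0.15 and a highest value of 0.53 without the 4 named above. AN3263, ninth in ratio, had a no carbon mean of 1669 and Avicel libraries of 460.1, 508 and 555. Its ratio of 3.29 did not move without library 2. In AN0090 the libraries held 652, 628 and 682, against a no carbon mean of 1404, and the ratio of 2.15 was 2.10 without library 2. AN7671 held 393, 797 and 471, with library 2 the highest, against 1503 without carbon. The ratio of AN7671 was 2.71, and 3.48 without library 2. AN6674 held 696, 600.0 and 722, and AN2280 held 739, 665 and 792, and without library 2 their ratios fell below the limit, to 1.99 and 1.97. Leaving out Avicel library 2 therefore raised the ratio of AN0499, AN11059, AN10930 and AN11068 by over 1.5 times, left that of AN3263 at 3.29 and took 2 of the 16 below 2.

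**Figure D2:**
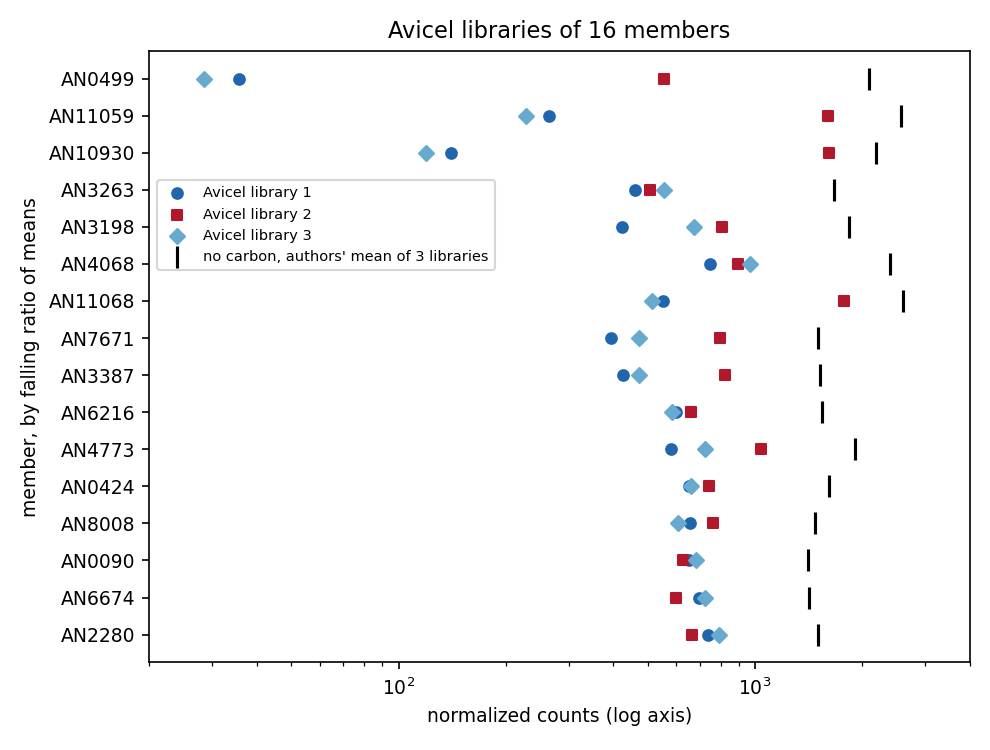
Normalized counts (x axis, log) in each of the 3 Avicel libraries for the 16 members whose reads per library could be read back, in order of falling ratio, with the authors' no carbon mean of 3 libraries as a black bar. Library 2 (red squares) lies far to the right of the others in AN0499, AN11059, AN10930 and AN11068, and every Avicel point lies left of the black bar. The bar shows no spread of the no carbon libraries.

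Other members with large ratios had Avicel means above 1000, for which no single libraries can be given. AN9485 came second, with a mean of 4591 normalized counts without carbon and 1159 on Avicel, a ratio of 3.96. AN2398 had means of 4478 and 1220.1, a ratio of 3.67. The most abundant of them was AN7349, with 66174 without carbon and 18640.2 on Avicel, a ratio of 3.55, which made it the seventh most abundant member as well. AN5707 had means of 4323 and 1311 (ratio 3.30), AN7716 16073 and 4885 (3.29), and AN8802 6574 and 2035 (3.23). Of the 10 members with the largest ratios, AN7349 was the only one that was also among the 10 with the highest no carbon mean.

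The 5 most abundant members without carbon held 2.03% of all normalized counts there and 0.766% on Avicel. AN5558 was the highest, with a mean of 252457 normalized counts without carbon and 96799 on Avicel, a ratio of 2.61. AN8803 followed with 183826 and 83283, and AN4809 with 174203 and 84574. Their ratios were 2.21 and 2.06. AN8007, the fifth, had means of 118762 and 42929, a ratio of 2.77. Further down came AN4807 with 77314 and 31971 (2.42), AN1148 with 54306 and 21072 (2.58), AN6382 with 53136 and 17467 (3.04) and AN9397 with 48367 and 24074 (2.01). With AN0245 and AN7349 these are the 10 members with the highest mean without carbon, and all of them still had Avicel means of 17467 normalized counts or more.

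Some members had consecutive identifiers. In the *A. nidulans* annotation such numbers mostly follow the order of genes along a contig, but gene positions were not used here, so a consecutive number is a property of the identifiers. There were 9 pairs of members with consecutive numbers, 18 members in all. Of the 189 genes with a mean of at least 1000 whose number was next to that of a member, 18 (9.52%) were members themselves, beside 2.51% of all such genes. The 171 other neighbours had a median log2 ratio of 0.07, beside 0.04 over all other non-member genes at or above a mean of 1000, both after the rule had removed the genes with the highest ratios, so nothing is read from these medians.

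Some members of a pair differed strongly in level. AN8007, with a mean of 118762 without carbon, stood next to AN8008, with 1469.8 there and 675 on Avicel, a ratio of 2.18. AN8008 held 658, 760 and 607 in the Avicel libraries, and its ratio was 2.32 without library 2. Both genes before this pair had ratios above 2 but too low a mean for the rule, AN8005 with a ratio of 2.04 and AN8006 with 2.61, so 4 consecutive numbers had ratios from 2.04 to 2.77. AN8802 and AN8803, with ratios of 3.23 and 2.21, stood between AN8801 (1.56) and AN8804 (1.65). AN4806 (4834 without carbon and 2376 on Avicel, ratio 2.03) preceded AN4807, and AN4809 followed close by with a ratio of 2.06. AN7670 (30375 and 14342, ratio 2.12) and AN7671 were followed by AN7672, which had a ratio of 1.93.

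In AN9128 and AN9129 both level and ratio were alike, with 9959.9 and 6897 normalized counts without carbon, 3621 and 2571 on Avicel, and ratios of 2.75 and 2.68. The next number, AN9130, went the other way, with a ratio of 0.31. AN2043 and AN2044 had 5361 and 8707 normalized counts without carbon and 2432 and 3344 on Avicel. The ratios were 2.12 and 2.20 in AN2752 and AN2753, 2.59 and 2.47 in AN3303 and AN3304, and 2.35 and 3.29 in AN7715 and AN7716. AN6380 (ratio 2.13) and AN6382 (3.04) enclosed AN6381, with 1.87, while AN6379 before them had 0.30. AN5556 (2.04) and AN5558 (2.61) enclosed AN5557, with 1.18. AN5559, next to AN5558, had a ratio of 1.78. The numbers beside a group therefore had ratios that ranged from 0.30 to values just under the limit, and to 2.61 in AN8006.

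**Figure D3:**
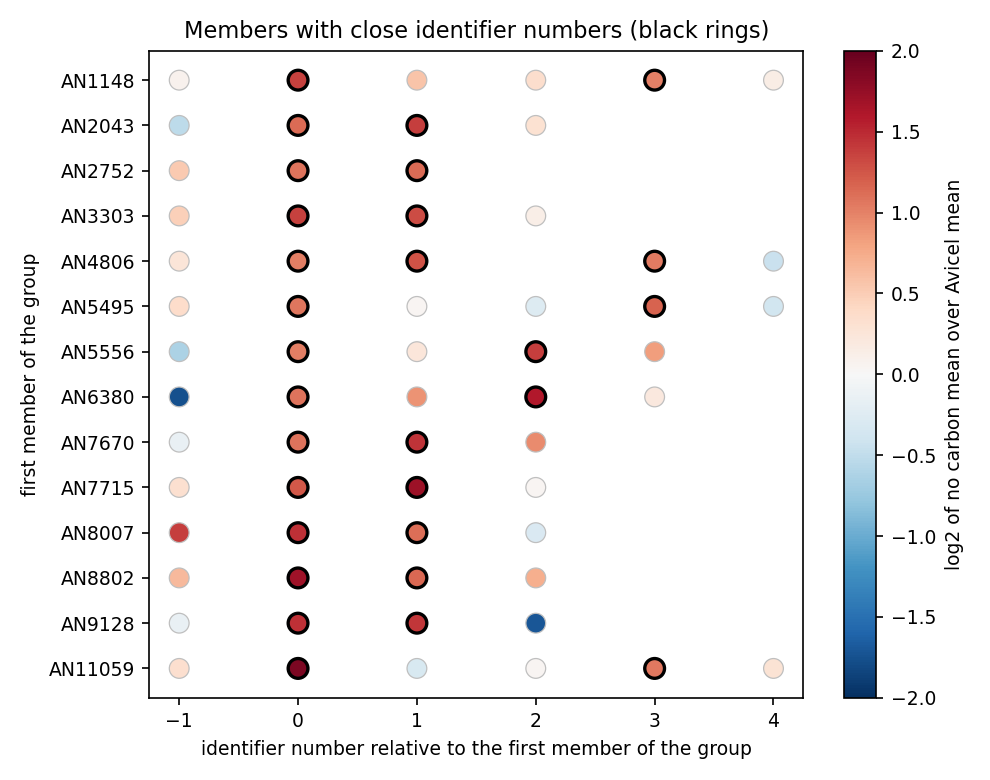
Log2 ratio of the no carbon mean over the Avicel mean (colour) for genes at and next to the 14 groups of members with numbers at most 3 apart; the x axis gives the identifier number relative to the first member of each group, black rings mark members, and a missing point is a number that is not in the table. Most neighbours without a ring are pale, and AN6379 and AN9130 are deep blue, with ratios of 0.30 and 0.31.

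Identifiers with 5-digit numbers, such as AN11059 and AN10930, made up 21 of the 145 members and 811 of the 5768 genes from which they were chosen.

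The rule divided genes with nearly equal values. Just above the ratio limit were AN1151 (2072 without carbon and 1032 on Avicel), AN9397 and AN0861 (7922 and 3943), with ratios of 2.009 each. Just under it were AN7720 with 1.999, AN4871 with 1.995 and AN7159 with 1.992. AN4871 had the highest mean of the whole table, 1438534 normalized counts without carbon and 720929 on Avicel, so 1 gene just outside the limit was far more abundant than any member. At the limit on the mean, AN7671, AN0090 and AN6674 lay just above, with means of 1028, 1029 and 1043, and AN11232, AN8908 and AN8005 just under, with 999.5, 983 and 977. Of the numbers left out, AN8979 had 18118 normalized counts without carbon and 4597 on Avicel, a ratio of 3.94. AN8980 and AN8981 had ratios of 5.74 and 6.02 at means of 105 and 748, whereas AN8977, AN8978 and AN8982 had ratios of 1.64, 1.11 and 0.68.

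The scaling of the tables moved the number of genes in each direction. As deposited, 146 genes with a mean of at least 1000 were at least 2 times higher without carbon and 395 at least 2 times higher on Avicel, so 27.0% of these were lower on Avicel. With the group means rescaled to equal sums, which shifts every log2 ratio by 0.14, the counts were 247 and 317 (43.8%). With the ratios recentred on their median, a shift of -0.06, they were 121 and 441 (21.5%).

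Genes less abundant than the members show how far libraries of 1 group varied at lower levels. Reads of all 6 libraries were read back for 863 genes with means of 200 to 1000. The median standard deviation of the log2 value was 0.21 over the Avicel libraries and 0.27 over the no carbon libraries. A ratio of at least 2 was reached by 29 of these genes, and in them the medians were 0.48 and 0.49. In 19 of the 29, all no carbon libraries lay above all Avicel libraries, beside 118 of the 863 genes (13.7%). That share has no weight of its own, since a ratio of 2 selects such genes. In the other 10 genes the groups overlapped in spite of the ratio. Only 3 of the 29 had a mean of 500 to 1000, and in all 3 the groups were apart. These 3 genes are too few to tell how overlap changes with level. The members' median mean was 3594, and whether groups overlapped among members was not tested.

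**Figure D4:**
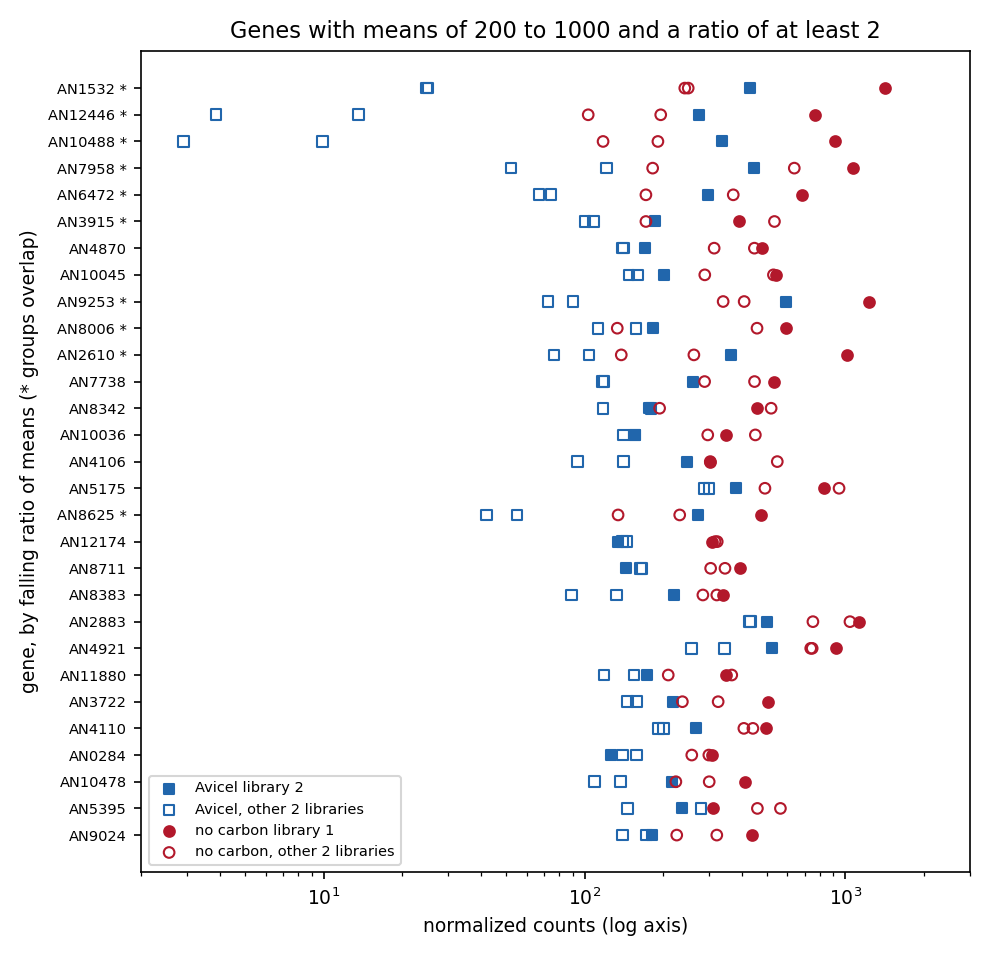
Normalized counts (x axis, log) in each of the 6 libraries for the 29 genes with means of 200 to 1000, a ratio of at least 2 and reads of every library, in order of falling ratio; squares are Avicel and circles no carbon libraries, filled for Avicel library 2 and no carbon library 1, and a star marks genes whose groups overlap. The genes with the largest ratios, such as AN1532 and AN12446, have both filled symbols far to the right of the open symbols of their group.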

How the data were processed

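RNA was sequenced by the authors and mapped to predicted transcripts with TopHat 2.0.4; reads on unique exons were tallied with HTSeq and normalized in DESeq (versions not stated; build not given in the sources used here). Each signal value that the authors deposited is the mean, over the 3 libraries of a group, of size-factor-normalized counts, in a table for either species. Fold change, log2 fold change, p-value and adjusted p-value columns, the authors' own comparison, were not used. A planned test per library was not possible on means.

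Ratios, sums and counts were computed from the means with numpy 2.4.6, numba 0.67.0 and pandas 2.3.3 under Python 3.11.15, and drawn with matplotlib 3.10.9. Size factors were inferred from the 3 most frequent single-read means of each group and refined by least squares, and means below 1000 were then solved for the whole reads of the 3 libraries, and only single solutions were kept: 4395 of 4842 means on Avicel and 3536 of 4851 without carbon. Solutions are inferred from the 10 digits of each mean. Counts were also simulated for the genes with a mean below 1000, with a fixed spread between libraries. All 4378 and 3603 single solutions were right there. This check covers the arithmetic under that model. Counting errors cover sampling of reads only.

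Genes were named by rule: the 10 largest ratios, the 10 highest no carbon means, annotated members, members with neighbouring numbers, the 3 genes on either side of each limit, and 3 cellulase genes. The other secretory genes, the genes just below the limit and the library alternatives were chosen after values had been seen. Members and lists were chosen with earlier results of these data known. Roles come from the study's annotation. Alternatives covered the limits of the rule, scaling, pseudocount, neighbour distance and left-out libraries. The 3 libraries of a group are labelled as biological replicates.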

Additional observations from a re-analysis of the deposited data

How the results depend on the processing

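The number of members was 145. It was 628 with a ratio limit of 1.5, 13 with a limit of 3, and 246 with group means rescaled to equal sums. Mean limits of 500 and 2000 gave 184 and 102, recentred ratios 120, and keeping AN8977 to AN8982 gave 146, all within 1.5 times the main count. The members' median log2 ratio of 1.20 was 1.34 with equal sums, 1.14 recentred and 1.19 with a pseudocount of 10. Without the most abundant member, the members' share was 4.86% of normalized counts without carbon and 1.86% on Avicel. Pairs of members numbered 9 with consecutive numbers and 16 with numbers at most 3 apart, and members made up 9.52% of consecutive neighbours, 6.06% of neighbours at most 3 numbers away and 6.64% of consecutive neighbours at any mean. The share of *N. crassa* partners lower on Avicel was 0 of 5 under each alternative run. The choice of the listed pairs fixes that direction, so its stability carries no weight. Of the 16 members read per Avicel library, 14 to 16 kept a ratio of at least 2 when 1 Avicel library was left out, the lowest without library 2. The share of genes with a ratio of at least 2 whose groups did not overlap was 65.5% for means of 200 to 1000, 63.0% from 100 and 100% (3 of 3) from 500, beside 13.7%, 14.2% and 17.7% of all genes in these ranges. Without Avicel library 2 and no carbon library 1 it was 97.0% (32 of 33), beside 21.9% of all genes. With 2 libraries per group separation comes more easily. The 2 left-out libraries were also chosen after their high values in overlapping genes such as AN1532 had been seen. The 97.0% therefore carries no weight and is not to be set against 65.5%. A stricter ortholog match and promoter motifs were not run, since proteins and promoters were not used here. No paired analysis was possible because the tables hold group means and the libraries read back from them carry no replicate numbers. The members' ratios have no error from replicates, as their no carbon means could not be resolved into libraries.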

Other observations

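Further *A. nidulans* genes were less abundant than the members, with means of 200 to 1000 and reads of every library. Among these, the genes with the largest ratios also had high values in Avicel library 2. AN1532 held 25.1, 433 and 24.8 normalized counts in the Avicel libraries and 1422, 249.8 and 242 in the no carbon libraries, a ratio of means of 3.97. AN12446 held 3.87, 274 and 13.6 on Avicel and 763, 196 and 103 without carbon, a ratio of 3.64, and AN10488 held 2.90, 336 and 9.91 and 912, 191 and 118, a ratio of 3.50. In all 3 genes, Avicel library 2 was above both no carbon libraries 2 and 3. In AN4870, by contrast, the Avicel libraries held 140.1, 170.2 and 141 and the no carbon libraries 477, 314 and 448, so the groups were apart at a ratio of 2.74. Of 33 genes with a mean of 100 to 1000 in which Avicel library 2 was at least 2-fold above both others, no carbon library 1 was the highest of its group in 26 and at least 2-fold above both others in 18. Over the 935 genes with a no carbon mean of 200 to 1000 and reads per library, it was 2-fold above both others in 23. The share of all genes with no carbon library 1 highest was not computed. These 33 genes had a median ratio of 2.29, beside 0.93 over all 1393 genes read in this range, and 18 of them had a ratio of at least 2, of 54 in all. The part of these 2 libraries in the members' no carbon means was not tested.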
